A study of Mus musculus with 67 samples.

Results

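Livers of mice with a liver knockout of Bmal1 (gene symbol Arntl; Bmal1LKO) were compared between dark-phase and light-phase collection times. The comparison took every Bmal1LKO library at zeitgeber time (ZT, hours after lights on) 16 and 20, 4 dark libraries, against every one at ZT4 and ZT8, 4 light libraries. These were 8 of the 67 mRNA libraries of the series, and each phase had 2 libraries from mice under time-restricted feeding (food offered in a daily window) and 2 from mice fed ad libitum (food at all times). All mice were C57BL/6, 24 weeks old and on a high-fat diet for 12 weeks, the genotype label being Bmal1-liverKO in every one of the 8. The 4 remaining Bmal1LKO libraries, at ZT12 and ZT24, are given as levels and entered no test of the comparison. Wild-type (WT) livers of the same times, 8 dark and 8 light libraries under the same diet and feedings, served as the set against which the knockout's phase difference was tested. No label gives the hours of the feeding window, the light schedule or the promoter driving the deletion. Collection phase and time since eating therefore cannot be told apart.

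BMAL1 pairs with CLOCK to activate genes that carry E-boxes, among them the Per, Cry and Rev-erb genes, whose products in turn repress CLOCK, BMAL1 or the Arntl gene itself. Liver transcripts also follow cues from outside the liver clock, such as meals, hormones and body temperature. Per2 and chaperone genes driven by heat shock factor are known to respond to such systemic cues. The comparison addresses which transcripts differ between dark and light in livers with the Bmal1 knockout.

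Values are FPKM (read fragments scaled to gene length and library size) as the authors deposited them, and differences are dark minus light on the log2(FPKM + 1) scale, with their standard error (SE). A gene is said to have risen or fallen in the dark libraries where limma gave a Benjamini-Hochberg adjusted p under 0.05 over 9958 genes. Where 4 values are listed for the dark libraries, their order is restricted ZT16, restricted ZT20, ad libitum ZT16 and ad libitum ZT20. The 4 light values run restricted ZT4, restricted ZT8, ad libitum ZT4 and ad libitum ZT8.

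The deleted gene was examined first. Arntl was at 2.46, 3.84, 2.90 and 7.09 FPKM in the dark Bmal1LKO libraries, against 3.39, 2.00, 3.67 and 2.76 FPKM in the light ones. Its dark minus light difference was 0.30 ± 0.24 (adjusted p = 0.588), and the ad libitum ZT20 library stood above the other 7. In WT it averaged 7.91 ± 3.23 FPKM in the dark and 5.05 ± 5.04 FPKM in the light (SD, n = 8 each). Whole-liver FPKM counts reads over the entire gene, and no label says which exons were removed, so the level is a weak check of the label.

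Recovered depth ran from 10.06 to 16.8 M reads in the dark libraries and from 9.95 to 13.61 M reads in the light ones (exact permutation test within feeding, two-sided, p = 0.5). The exact permutation test has 36 arrangements and cannot go below p = 0.0556. The share of mitochondrial transcripts (5.34 to 6.93% dark, 4.71 to 6.49% light) and the dependence on GC content overlapped between phases too. Hepatocyte markers, 14 of 14 tested, summed to 52300 to 60700 FPKM in the dark and 47400 to 62500 FPKM in the light libraries. Red blood cell markers summed to 527 to 1290 FPKM in the dark libraries and 225 to 655 FPKM in the light ones (exact permutation p = 0.0556), with 0 of 5 tested genes passing. Bile duct markers summed to 53 to 157 FPKM in the dark and 75 to 346 FPKM in the light libraries (exact permutation p = 0.0556), most of it Spp1. Pancreas markers summed to 59.3 to 152 FPKM in the dark and 73.1 to 189 FPKM in the light libraries, nearly all of it Cela1, which liver also expresses. Among the acinar genes, Clps was at 1.81 FPKM in the restricted ZT16 library and listed at 0 in the other 7, and Prss1 was listed at 0 in all 8. The part of these markers in the results was not tested. In bulk liver, fewer cells of a type and less RNA per cell cannot be told apart.

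In Bmal1LKO liver, 119 genes differed between dark and light. Of these 45 rose (0.452% of the genes tested) and 74 fell (0.743%), and 1660 genes had an unadjusted p under 0.05. The 45 had a median difference of 1.19 and included 4 genes from the list of chaperones of the endoplasmic reticulum (ER) and 7 from the heat shock list. The 74 had a median of -0.81 and included a sterol exporter, a cold-inducible RNA-binding protein and a nuclear receptor of bile acid control. In 110 of the 119 the 4 dark and 4 light libraries did not overlap, against 920 genes, 9.24%, of all genes tested. The 119 were called on the same values, so this is not separate support. The number of calls rested on few libraries. It was 0 without restricted ZT16 (1143 genes at an unadjusted p under 0.05), 4 without restricted ZT8, 14 without restricted ZT4, 16 without ad libitum ZT8, 29 without restricted ZT20, 54 without ad libitum ZT16 and 286 without ad libitum ZT4. In the same fits, the 35 genes of the naming rule that passed with all 8 libraries kept their direction.

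**Figure D1:**
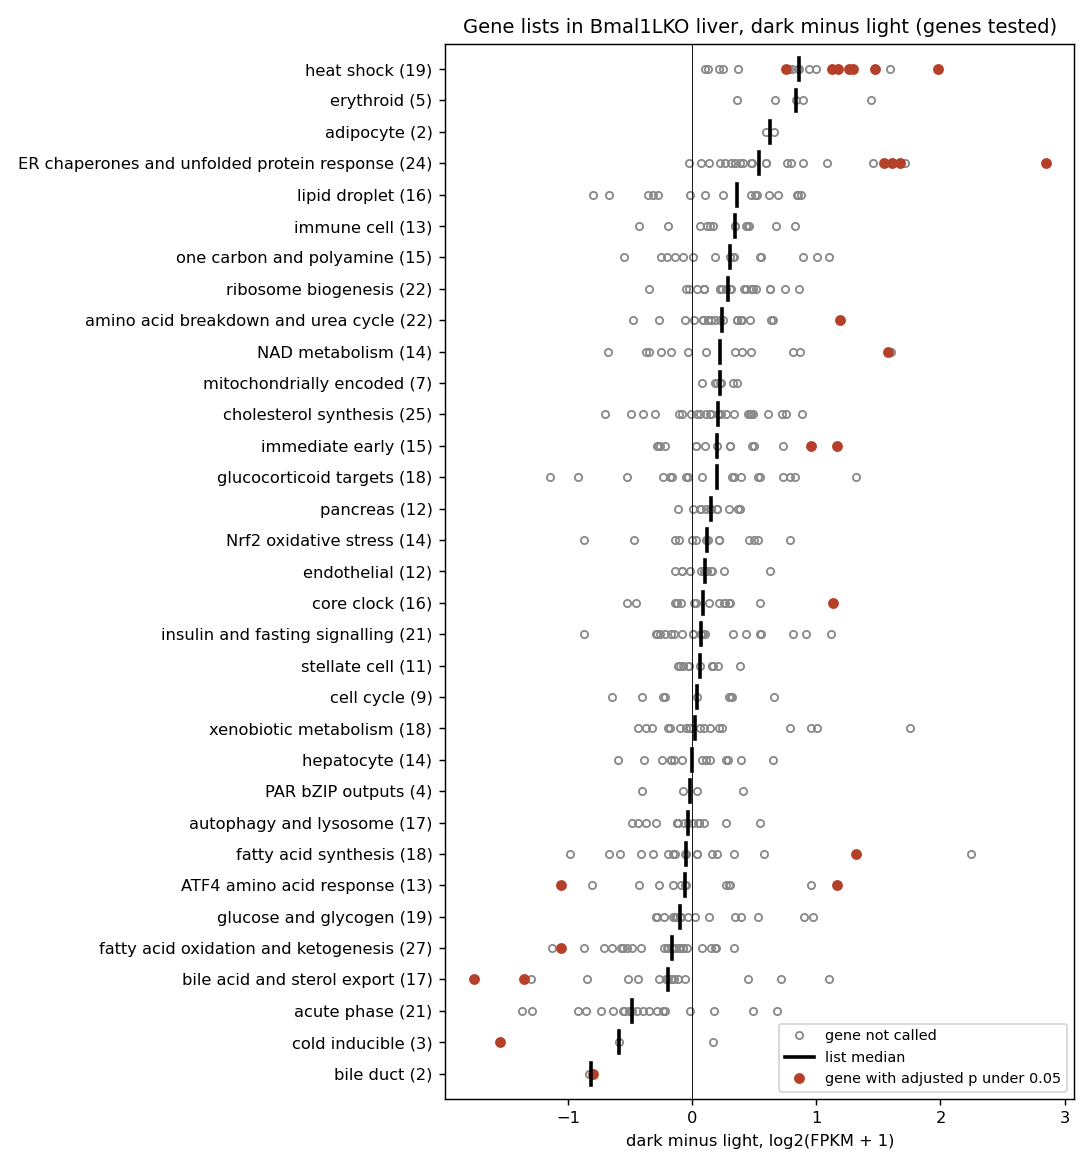
Each row is 1 of the 33 gene lists, with the number of its genes tested in brackets, and each point is 1 gene's dark minus light difference in Bmal1LKO liver on the log2(FPKM + 1) scale. Filled red points passed at an adjusted p under 0.05, open points did not, and the black bar is the list's median, which was 0.86 for heat shock genes and 0.54 for ER chaperones.

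ER chaperones bind and fold secreted proteins, and the unfolded protein response is the pathway that raises them when folding demand exceeds capacity. Of 24 genes tested from this list, 4 rose and 0 fell, 23 lay above 0, and the median difference was 0.54. Over all 9958 genes tested, 0.452% rose, 5219 lay above 0 and the median was 0.01. Creld2, an ER-resident protein induced by ER stress, had the largest rise of any gene tested in Bmal1LKO. It was at 240, 167, 104 and 62.9 FPKM in the dark libraries, against 17.2, 15.5, 19.5 and 15.4 FPKM in the light ones. All 4 dark libraries lay above all 4 light ones, with the restricted pair above the ad libitum pair. The difference was 2.85 ± 0.30 (adjusted p = 0.00755), and over 23 alternative settings it ran from 2.60 to 3.13, with adjusted p-values up to 0.0618.

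Hspa5 encodes BiP, the main ER chaperone and a sensor of unfolded protein. It was at 705, 409, 585 and 320 FPKM in the dark libraries, against 132, 133, 223 and 187 FPKM in the light ones, a difference of 1.54 ± 0.29 (adjusted p = 0.0484). Hyou1, a large ER chaperone that works with BiP, was at 62.3, 30.8, 48.0 and 36.6 FPKM in the dark, against 9.67, 8.95, 16.4 and 18.5 FPKM in the light, and rose by 1.67 ± 0.26 (adjusted p = 0.0329). Syvn1, the ubiquitin ligase that marks misfolded ER proteins for destruction, was at 39.6, 18.4, 39.5 and 26.7 FPKM in the dark, against 8.36, 6.97, 9.60 and 12.0 FPKM in the light. It rose by 1.61 ± 0.24 (adjusted p = 0.026), and it overlaps Mrpl49 on the opposite strand, whose reads cannot be told apart here because no source used here gives the strand setting. In Hspa5, Hyou1 and Syvn1 the ZT16 library was the higher dark one under both feedings, and no dark library overlapped a light one. At ZT12 and ZT24, outside the comparison, Creld2 was at 18.5 to 33.4 FPKM and Hspa5 at 157 to 287 FPKM, below every dark library of the comparison.

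The rest of the list was not uniform. Manf, a secreted ER protein, and Pdia4 and Hsp90b1, which fold disulfide-bonded and client proteins, did not pass (adjusted p = 0.0651, 0.0773 and 0.0706). Their differences were 1.72 ± 0.37, 0.90 ± 0.21 and 1.09 ± 0.24. Their phases did not overlap, which held for 9.24% of all genes tested. Calr and Canx, the lectin chaperones of glycoproteins, had differences of 0.35 ± 0.23 and 0.22 ± 0.16, and Derl1 was at -0.02 ± 0.14. Xbp1, the transcription factor of the response, had a difference of 0.35 ± 0.22 (adjusted p = 0.478). The list's median was 0.86 under restricted feeding and 0.34 under ad libitum feeding, each from 2 dark and 2 light libraries. None of its genes passed the test of a difference between feedings. The count of 4 became 0 without the restricted ZT16 or the restricted ZT8 library, 1 without ad libitum ZT8, ad libitum ZT16 or restricted ZT4, 2 without restricted ZT20 and 8 without ad libitum ZT4.

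Promoters of the genes that rose were searched for the ER stress response element, which ATF6 binds together with NF-Y, read as CCAAT, 9 bases of any kind, then CCACG on either strand. Of the 4, 3 had an entry in the RefSeq promoter table (GRCm38.p6, 250 bases before to 50 after the start), and all 3 held the element. They are shown because they carry the same element ahead of the 3 genes just described, with the element in capitals.
Creld2 (chr15:88819396-88819695, plus strand): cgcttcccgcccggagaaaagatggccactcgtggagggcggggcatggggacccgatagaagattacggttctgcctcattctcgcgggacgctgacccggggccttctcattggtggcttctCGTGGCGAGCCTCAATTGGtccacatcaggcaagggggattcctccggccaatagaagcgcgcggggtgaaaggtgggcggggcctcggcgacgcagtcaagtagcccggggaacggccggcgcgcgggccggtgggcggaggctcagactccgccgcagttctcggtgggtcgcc
Hspa5 (chr2:34771840-34772139, plus strand): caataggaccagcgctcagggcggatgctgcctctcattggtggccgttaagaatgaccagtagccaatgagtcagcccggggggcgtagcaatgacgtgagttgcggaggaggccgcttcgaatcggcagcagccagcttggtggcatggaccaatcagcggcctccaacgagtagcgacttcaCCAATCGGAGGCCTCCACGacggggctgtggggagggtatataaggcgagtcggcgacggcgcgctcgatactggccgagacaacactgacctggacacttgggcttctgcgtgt
Syvn1 (chr19:6046326-6046625, plus strand): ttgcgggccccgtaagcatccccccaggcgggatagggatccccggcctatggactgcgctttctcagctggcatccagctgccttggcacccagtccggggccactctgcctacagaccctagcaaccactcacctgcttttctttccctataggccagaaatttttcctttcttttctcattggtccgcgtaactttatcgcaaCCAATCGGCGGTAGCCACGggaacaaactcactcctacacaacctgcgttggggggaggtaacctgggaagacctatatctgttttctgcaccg
In Creld2 the element reads on the opposite strand. Among 17 list genes with a promoter entry that did not pass, 6 held it (Calr, Canx, Derl3, Dnajc3, Hsp90b1 and Pdia6), so it was not limited to genes that rose. The element was found in 0.12% of all 32851 promoters and in 0.15% of the 9568 promoters of genes tested. These shares count promoter entries, while a list gene counted if any of its entries held the element. A match of letters is a description and not a measured binding site.

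Cytosolic heat shock proteins keep other proteins folded, and heat shock factor 1 drives their genes. Of 19 list genes tested, 7 rose and 0 fell, all 19 lay above 0, and the median difference was 0.86. Over all genes tested, 0.452% rose and 5219 of 9958 lay above 0. Hsph1, the nucleotide exchange factor HSP105 for HSP70, was at 21.5, 15.5, 27.2 and 18.1 FPKM in the dark libraries, against 5.80, 3.29, 3.73 and 5.04 FPKM in the light ones. The dark mean was 4.61 times the light mean, with a difference of 1.98 ± 0.21 (adjusted p = 0.00751). Chordc1, a co-chaperone of HSP90, was at 42.9, 45.8, 42.7 and 39.9 FPKM in the dark, against 18.2, 15.5, 18.8 and 16.7 FPKM in the light. Its libraries hardly varied within a phase, and it rose by 1.26 ± 0.12 (adjusted p = 0.00681).

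Hsp90aa1, the inducible cytosolic HSP90, was at 21.9, 19.7, 17.1 and 27.3 FPKM in the dark, against 9.64, 5.07, 6.98 and 6.91 FPKM in the light, and rose by 1.47 ± 0.20 (adjusted p = 0.0202). Hspa8, the constitutive HSP70, was at 107, 64.7, 90.7 and 45.5 FPKM in the dark, against 36.5, 37.9, 20.6 and 25.4 FPKM in the light (difference 1.29 ± 0.24, adjusted p = 0.0484), a call that held in 7 of 23 alternative settings. The other 3 that rose, named after their values were seen, were Hspa4l (1.17), the HSP70 to HSP90 adaptor Stip1 (1.13) and the HSP40 gene Dnaja1 (0.76). Hspa1b, the inducible HSP70, was at 6.70, 7.08, 21.5 and 1.04 FPKM in the dark, against 1.24, 1.68, 0.717 and 2.35 FPKM in the light. Its low ad libitum ZT20 library fell within the light range, and the difference of 1.59 ± 0.61 did not pass (adjusted p = 0.241). The mitochondrial chaperones Hspd1 and Hspa9 had differences of 0.22 ± 0.16 and 0.13 ± 0.15, and Hsf1 itself was at 0.10 ± 0.18. The count of 7 fell to 0 without restricted ZT16 or restricted ZT8, to 2 without ad libitum ZT8 or restricted ZT20 and to 3 without restricted ZT4, while the list's median stayed between 0.84 and 1.02.

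**Figure D2:**
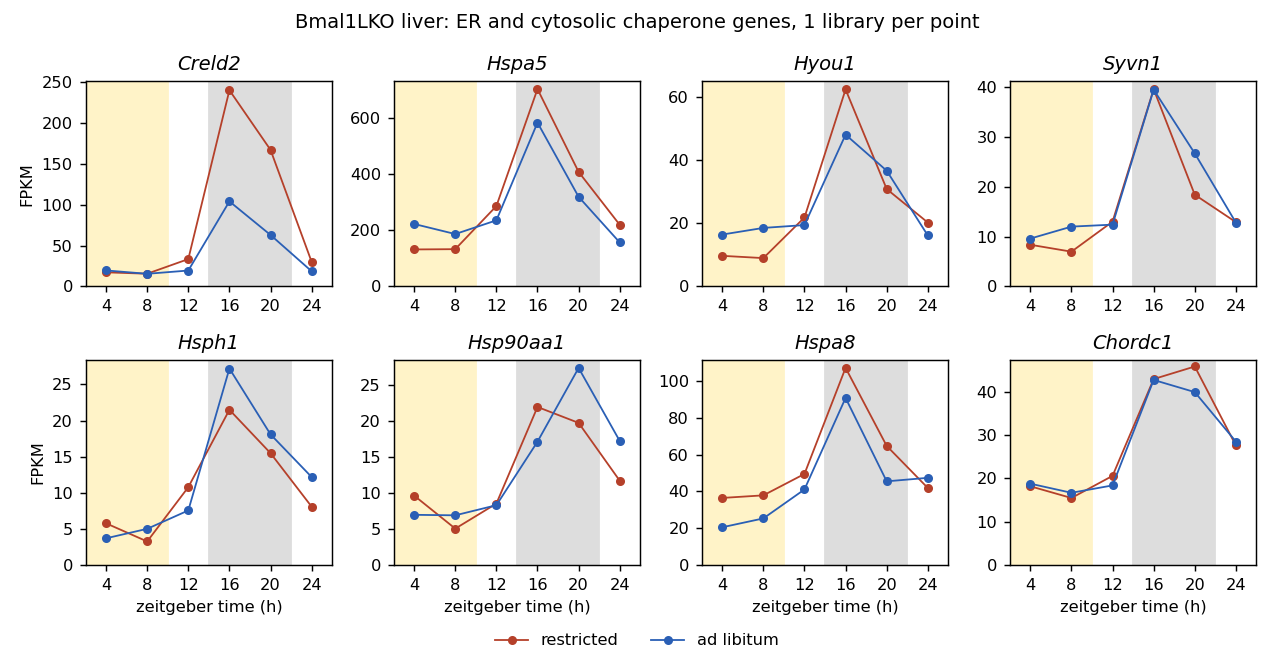
FPKM of 4 ER genes (top) and 4 cytosolic chaperone genes (bottom) at the 6 collection times in Bmal1LKO liver, 1 library per point, restricted feeding in red and ad libitum in blue. Grey marks the dark times and yellow the light times compared, and every gene shown is higher at ZT16 and ZT20 than at ZT4 and ZT8 under its own feeding.

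Heat shock factor binds repeats of GAA in alternating orientation, searched as GAANNTTC and as TTCNNGAA, which can overlap each other and are the same on both strands. Of the 7 genes, 5 had a promoter entry. GAANNTTC was found in 3 of these 5 (Chordc1, Dnaja1 and Hsph1), and in 5 of 8 list genes with an entry that did not pass. It was in 7.86% of all promoters and 5.96% of those of genes tested. TTCNNGAA was found in Chordc1 and Hsph1, and in 2 of the 8 that did not pass (Hspd1 and Hspe1). It was in 8.52% of all promoters and 7.14% of those of genes tested. A gene counted if any of its promoter entries held the motif, while the shares count entries. Hspd1 and Hspe1 also held GAANNTTC, so holding both was not limited to genes that rose. The entries of Hspd1 and Hspe1 with these matches overlap on opposite strands of chromosome 1. Both genes therefore count the same stretch, for TTCNNGAA and within the 5 of 8 for GAANNTTC. The promoters of the 2 genes that rose and held both are shown with the matches in capitals, where overlapping matches join.
Hsph1 (chr5:149636287-149636586, minus strand): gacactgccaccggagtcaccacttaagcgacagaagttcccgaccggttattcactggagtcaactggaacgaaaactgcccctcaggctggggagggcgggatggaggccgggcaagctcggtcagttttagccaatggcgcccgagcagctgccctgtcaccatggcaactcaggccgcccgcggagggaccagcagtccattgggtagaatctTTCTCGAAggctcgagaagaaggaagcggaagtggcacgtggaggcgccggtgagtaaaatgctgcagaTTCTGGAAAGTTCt
Chordc1 (chr9:18292017-18292316, plus strand): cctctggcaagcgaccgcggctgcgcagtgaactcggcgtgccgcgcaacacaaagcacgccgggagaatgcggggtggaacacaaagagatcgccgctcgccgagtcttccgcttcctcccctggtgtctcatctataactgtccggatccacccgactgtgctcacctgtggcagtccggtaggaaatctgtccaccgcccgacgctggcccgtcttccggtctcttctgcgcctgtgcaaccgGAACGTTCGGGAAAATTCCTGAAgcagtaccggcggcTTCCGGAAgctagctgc
These matches too are descriptions of letters and not measured binding sites.

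Cold-inducible genes were read beside the heat shock genes. Cirbp, an RNA-binding protein induced by mild cooling, was at 2.82, 1.77, 2.94 and 2.54 FPKM in the dark libraries, against 8.21, 14.7, 8.38 and 6.95 FPKM in the light ones. All dark libraries were below all light ones, and it fell, with a difference of -1.55 ± 0.22 (adjusted p = 0.0217). At ZT24 it was still low, at 3.21 FPKM under restricted and 3.24 FPKM under ad libitum feeding. Rbm3, another cold-induced RNA-binding protein, was at 0.17 ± 0.16, and the splicing factor Srsf5 at -0.59 ± 0.16 (adjusted p = 0.125). Thus 1 of the 3 list genes fell, against 0.743% of all genes tested.

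Other genes with large rises served signalling, translation and metabolism. Rcan1, an inhibitor of the phosphatase calcineurin, was at 45.5, 46.1, 32.2 and 27.2 FPKM in the dark, against 9.09, 8.09, 8.06 and 9.15 FPKM in the light. It rose by 1.98 ± 0.16 (adjusted p = 0.00531) and kept its call in 22 of 23 alternative settings. Nnmt, which methylates nicotinamide, was at 594, 854, 233 and 337 FPKM in the dark, against 152, 172, 180 and 104 FPKM in the light (1.58 ± 0.29, adjusted p = 0.048). Eif4ebp3, a repressor of cap-dependent translation, was at 30.5, 11.9, 9.28 and 3.6 FPKM in the dark, against 6.95, 5.63, 1.08 and 0.61 FPKM in the light, with overlap between phases but not within a feeding (1.69 ± 0.32, adjusted p = 0.0484). Its call held in 7 of 23 alternative settings, with adjusted p-values up to 0.348. Ccbl2, a kynurenine aminotransferase, rose by 1.33 ± 0.23 (adjusted p = 0.0453). The urea cycle enzyme gene Asl was at 95, 103, 110 and 126 FPKM in the dark, against 45.0, 51.7, 48.8 and 41.9 FPKM in the light, and rose by 1.19 ± 0.15 (adjusted p = 0.0139). It was the 1 gene of 22 in its list to pass, while 0.452% of all genes tested rose. Of the 22, 19 lay above 0, against 5219 of 9958 over all genes.

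Elovl6, which lengthens palmitate, rose by 1.32 ± 0.20 (adjusted p = 0.0303), as the 1 gene of 18 from fatty acid synthesis to pass. It was at 12.0, 14.7, 13.6 and 19.9 FPKM in the dark, against 3.90, 3.38, 9.53 and 6.11 FPKM in the light. The list was split, with 8 genes above 0, 10 below and a median of -0.05, and 0.452% of all genes tested rose. Differences in the list ran from -0.98 to 2.25, and the gene at 2.25 did not pass. The stress transcription factor Atf3 was at 2.68, 3.28, 1.71 and 4.03 FPKM in the dark, against 0.415, 0.614, 1.07 and 0.773 FPKM in the light, and rose by 1.17 ± 0.20 (adjusted p = 0.0453). Jun, a subunit of AP-1, rose by 0.95 ± 0.17 (adjusted p = 0.0453), with overlap between phases because both ad libitum light libraries were above the restricted ZT20 library, and its call held in 9 of 23 alternative settings. The annotated pseudogenes Gtpbp4-ps1 (2.56 ± 0.41, adjusted p = 0.0367) and Serpina4-ps1 (1.33 ± 0.19, adjusted p = 0.0243) also passed, but each is uncertain, since counting could divide reads with a parent or a related gene. The call of Serpina4-ps1 held in 11 of 23 alternative settings, with adjusted p-values up to 0.746. Of the 119 genes, 12 had predicted or unnamed symbols, 9 of them among those that rose.

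Genes that fell had no single list behind them. Abcg8, a subunit of the transporter that exports sterols into bile, was at 5.27, 3.71, 15.4 and 6.89 FPKM in the dark, against 21.1, 20.9, 27.7 and 35.1 FPKM in the light. It fell, with a difference of -1.76 ± 0.24 (adjusted p = 0.0198). Its partner subunit Abcg5 was at 11.9, 5.47, 22.2 and 8.93 FPKM in the dark, against 20.4, 24.6, 34.5 and 34.8 FPKM in the light, a difference of -1.29 ± 0.29 that did not pass (adjusted p = 0.072). The pair overlap on opposite strands, so their reads may be divided. Nr0b2 (SHP), a nuclear receptor that represses bile acid synthesis, was at 4.13, 3.01, 6.96 and 8.67 FPKM in the dark, against 8.87, 13.7, 22.6 and 18.9 FPKM in the light (-1.36 ± 0.16, adjusted p = 0.0139). Cyp7a1, the rate-limiting enzyme of that synthesis, was at 70.7, 75.0, 54.4 and 83.1 FPKM in the dark, against 41.0, 45.8, 17.0 and 33.2 FPKM in the light. Its difference of 1.1 ± 0.25 missed the threshold (adjusted p = 0.0772). Its groups did not overlap, which held for 9.24% of all genes tested. Of 17 genes of bile acid and sterol export, 0 rose and 2 fell, with a median of -0.19. Over all genes tested, 0.452% rose and 0.743% fell.

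Rnf125, a ubiquitin ligase of innate immune signalling, was at 20, 28.3, 32.5 and 23.0 FPKM in the dark, against 110, 90.9, 65.5 and 72.7 FPKM in the light (-1.66 ± 0.21, adjusted p = 0.0143). Crot, which hands fatty acids shortened in peroxisomes to carnitine, was at 119, 132, 105 and 120 FPKM in the dark, against 313, 332, 224 and 175 FPKM in the light (-1.08 ± 0.17, adjusted p = 0.0367). In both genes the phases stood apart under either feeding. Spon2, a secreted matrix protein of innate immunity, fell by 1.74 ± 0.25 on the log2 scale, Ndrg1, a stress-responsive gene, by 1.35 ± 0.19, and the ectonucleotidase gene Enpp3 by 1.28 ± 0.20. Meiob, known from meiosis, Ppap2b, a lipid phosphate phosphatase, and Osgin1, an oxidative stress response gene, had differences of -1.25 ± 0.17, -1.14 ± 0.18 and -1.14 ± 0.16. These 6 had adjusted p-values of 0.0198 to 0.0329 and no overlap between phases. The same held for 110 of the 119 genes called on these values, and for 9.24% of all genes tested.

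**Figure D3:**
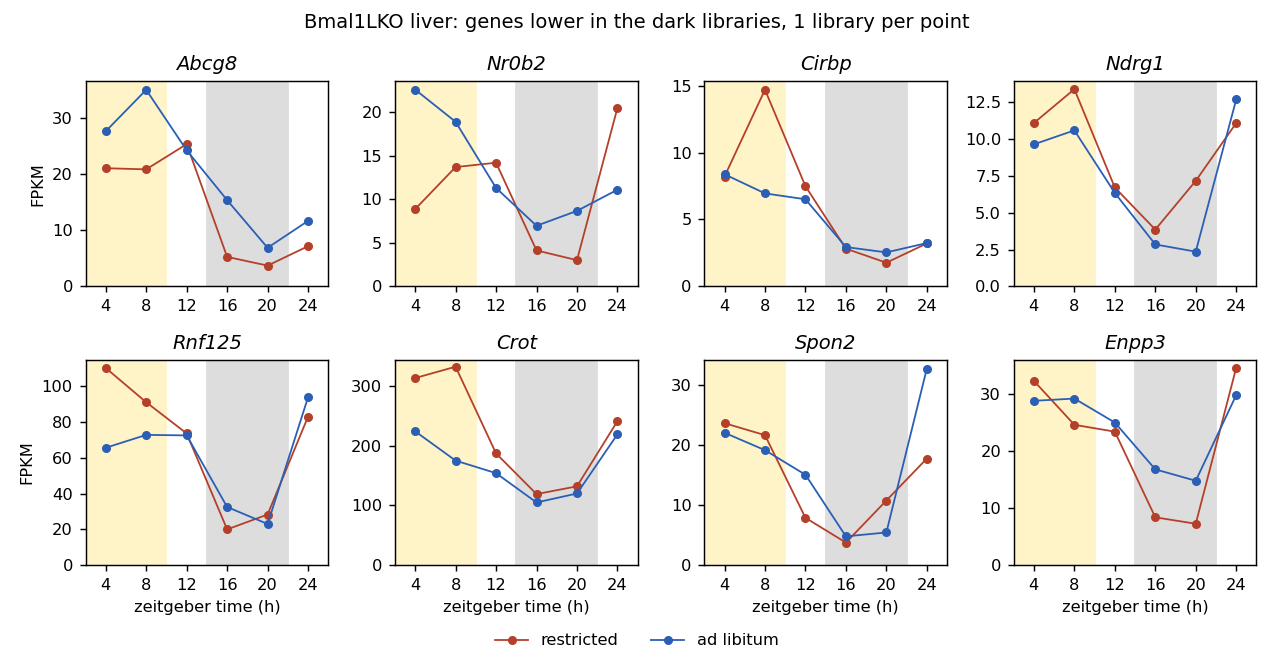
FPKM of 8 genes that fell in the dark Bmal1LKO libraries at the 6 collection times, 1 library per point, restricted feeding in red and ad libitum in blue. Grey marks the dark and yellow the light times compared, and Rnf125, Spon2 and Enpp3 are back at or above 17.8 FPKM at ZT24 while Cirbp stays at 3.21 and 3.24 FPKM.

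The fasting hormone gene Fgf21 was at 1.71, 0.733, 3.96 and 2.88 FPKM in the dark, against 3.74, 3.63, 10.1 and 5.94 FPKM in the light, and had a log2 difference of -1.06 ± 0.19 (adjusted p = 0.0456). The groups overlapped because the restricted light libraries were below the ad libitum ZT16 library, while within a feeding they did not. The call held in 8 of 22 alternative settings, with adjusted p-values up to 0.537. Fgf21 was the 1 gene of 27 in fatty acid oxidation and ketogenesis to pass, while 0.743% of all genes tested fell. In that list 22 lay below 0 and 5 above 0, against 4739 and 5219 of all genes tested, with a list median of -0.16. Sox9, a bile duct marker and transcription factor, fell, with a difference of -0.80 ± 0.14 (adjusted p = 0.0453), at 1.90, 2.56, 2.74 and 2.30 FPKM in the dark, against 5.36, 5.74, 4.30 and 4.12 FPKM in the light. The bile duct keratins Krt7 and Krt19 were at or under 1.34 FPKM in every one of the 8 libraries, and their part was not tested.

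Among 16 core clock genes tested, 1 rose and 0 fell, against 0.452% and 0.743% over all genes tested. Per2, a repressor of the clock, was at 6.74, 9.50, 7.03 and 8.38 FPKM in the dark, against 2.50, 2.63, 2.47 and 4.99 FPKM in the light. The phases did not overlap, and it rose by 1.13 ± 0.19 (adjusted p = 0.0453), against 0.94 ± 0.23 in WT. Its call was lost in 12 of 23 alternative settings, with a difference of 0.89 to 1.35. Per1 was at 0.55 ± 0.34 (adjusted p = 0.462), and Clock, the partner of BMAL1, at 0.30 ± 0.14. Dbp, a D-box activator normally driven by E-boxes, was at 2.06, 1.62, 1.73 and 1.52 FPKM in the dark and 1.82, 3.44, 2.42 and 2.96 FPKM in the light. Its difference was -0.41 ± 0.16 (adjusted p = 0.241), against WT means of 2.34 ± 1.51 FPKM in the dark and 18.6 ± 22.2 FPKM in the light (SD, n = 8 each). Dbp overlaps Sphk2 on the opposite strand (mean 5.87 FPKM over the 8 Bmal1LKO libraries), whose reads cannot be told apart here. None of the 4 PAR bZIP output genes passed.

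**Figure D4:**
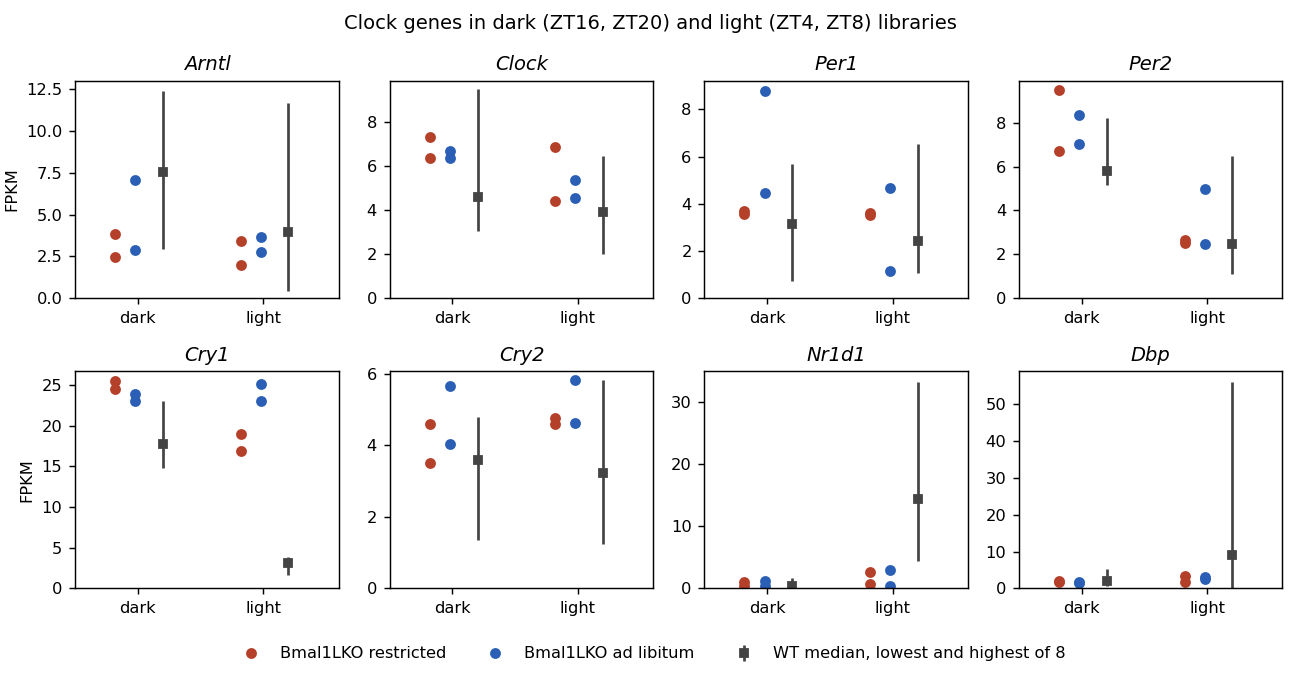
FPKM of 8 clock genes in dark and light libraries. Circles are single Bmal1LKO libraries (red restricted, blue ad libitum), and grey squares with bars are the WT median with the lowest and highest of 8 libraries; Cry1 is high in every Bmal1LKO library, at 16.9 FPKM or more, while the WT light libraries are at 1.66 to 3.81 FPKM.

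The WT phase difference was larger in number of calls. In WT, 677 genes rose (6.8%) and 1199 fell (12%) in the dark. The counts became 914 and 1038 with median-of-ratios scaling. With libraries scaled to the same sum they became 460 and 1837, and the median of all genes moved from -0.01 to -0.20. Dark WT library ad libitum ZT16 replicate 2 summed to 1097495 FPKM at 5.39 M recovered reads, and restricted ZT16 replicate 2 summed to 698391 FPKM. The other WT libraries of the comparison summed to 438992 to 566518 FPKM. Leaving out only these high libraries was not tested. WT had 8 libraries a phase, and its contrast came from the 24-library fit of both genotypes, with 18 residual degrees of freedom. Bmal1LKO had 4 libraries a phase and 5 degrees of freedom in its own fit, so the counts are not a comparison of effect. Of the 45 genes that rose in Bmal1LKO, 29 also rose in WT, and of the 74 that fell, 46 also fell in WT, with 0 called in opposite directions. The heat shock list had a median of 0.86 in Bmal1LKO and 0.83 in WT, where 12 of 19 rose. The ER list had a median of 0.54 in Bmal1LKO and 0.55 in WT, where 9 of 24 rose. In WT, 10 of 12 pancreas markers rose as well, Clps having a median of 8.4 and a highest value of 661 FPKM in the dark libraries and 0 in all 8 light ones. Pancreas is rich in ER chaperones, and the part of these markers in the WT values was not tested. In Bmal1LKO, 0 of 12 pancreas markers passed. The filter used the mean over all 67 libraries, so markers could enter the test through WT libraries where they are high. In the 8 Bmal1LKO libraries, 7 of the 14 listed markers averaged below 0.1 FPKM. Markers at such levels could hardly pass, so the 0 is no check of pancreas content.

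Only 3 genes had a phase difference that differed between Bmal1LKO and WT (0.0301% of 9958), with 717 at an unadjusted p under 0.05, and none of the 3 was among the 119. Among the 3 was Cry1, the clock repressor on chromosome 10 (GRCm38 85131700 to 85185064, minus strand). It was at 24.5, 25.5, 23.9 and 23.1 FPKM in the dark Bmal1LKO libraries, against 16.9, 19.0, 25.1 and 23.0 FPKM in the light ones. In WT it averaged 17.8 ± 2.63 FPKM in the dark and 2.90 ± 0.86 FPKM in the light (SD, n = 8 each). The Bmal1LKO difference was 0.21 ± 0.14 and the WT difference 2.29 ± 0.13, so that Bmal1LKO minus WT was -2.08 ± 0.23 (95% interval -2.56 to -1.60, adjusted p = 6.89e-05). All 4 light Bmal1LKO libraries lay above the highest light WT library, at 3.81 FPKM, and the 4 dark Bmal1LKO libraries lay above the highest dark WT library, at 23.0 FPKM.

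Nr1d1 (Rev-erb alpha), the repressor that acts on Cry1 and Arntl, was at 1.03, 0.388, 1.22 and 0.387 FPKM in the dark Bmal1LKO libraries, against 0.743, 2.70, 0.457 and 2.98 FPKM in the light ones. In WT it averaged 0.566 ± 0.578 FPKM in the dark and 16 ± 10.7 FPKM in the light. The difference between genotypes was 2.70 ± 0.60 (95% interval 1.45 to 3.94), which did not pass over all genes (adjusted p = 0.27), and Nr1d1 overlaps Thra on the opposite strand. Among genes averaging 5 FPKM or more, the next smallest p-values belonged to Tnfaip8l1, Mmd, Mreg, Cyp3a13, Usp18 and Mbd1, at adjusted p = 0.152 to 0.286. Mmd, a membrane protein of macrophage differentiation, was at 32.5, 26.3, 25.8 and 26.3 FPKM in the dark and 53.1, 62.3, 50.6 and 38.5 FPKM in the light in Bmal1LKO, against WT means of 46.9 ± 14.4 and 36.5 ± 11.0 FPKM. It fell by 0.85 ± 0.15 on the log2 scale in Bmal1LKO (adjusted p = 0.0453) and had a difference of 0.35 ± 0.15 in WT (adjusted p = 0.0951). Tnfaip8l1 fell by 0.96 ± 0.17 on the log2 scale in Bmal1LKO and was at 0.20 ± 0.14 in WT, with a difference of -1.16 (95% interval -1.65 to -0.67) between them. Rnf125 and Crot, which fell in Bmal1LKO, were at 0.07 ± 0.26 and -0.10 ± 0.19 in WT. The tests of those 2 differences gave adjusted p = 0.398 and 0.645, so neither is shown to differ between genotypes.

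**Figure D5:**
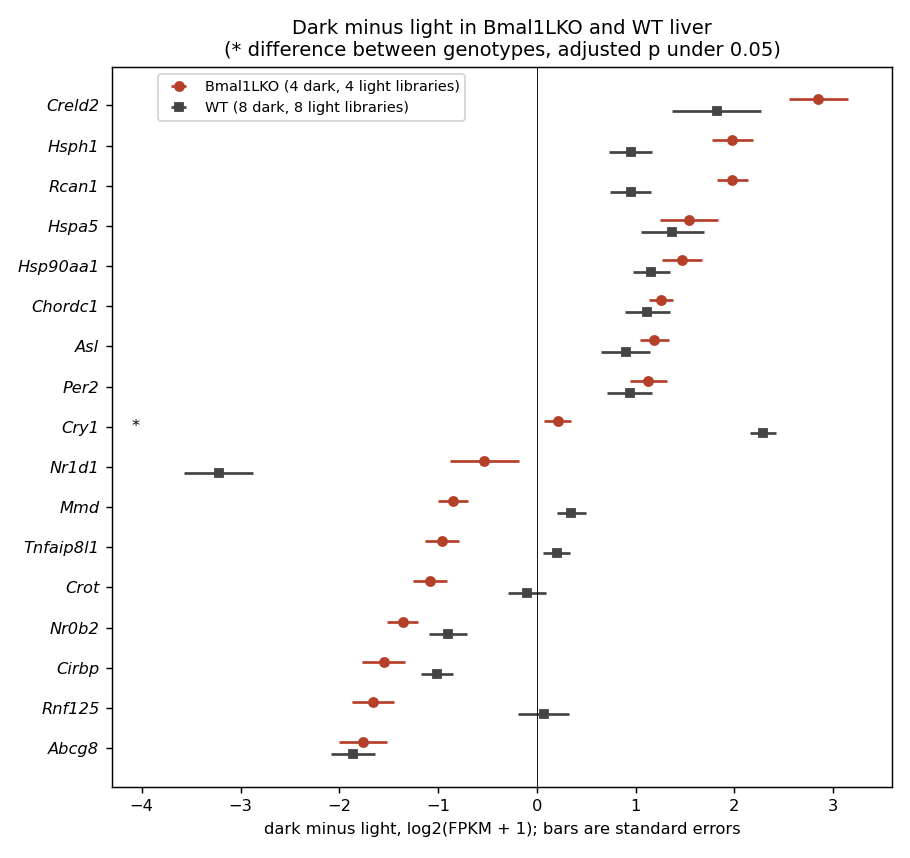
Dark minus light differences of 17 genes in Bmal1LKO (red circles) and WT (grey squares) liver on the log2(FPKM + 1) scale, with standard errors as bars. The Bmal1LKO bars come from the fit of 8 libraries, the WT bars from the fit of 24 libraries of both genotypes. Cry1, marked with a star, differs between genotypes at an adjusted p under 0.05; for the other 16 the difference between genotypes did not pass.

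For no gene did the Bmal1LKO phase difference depend on feeding (0% of 9958 in limma), with 346 genes at an unadjusted p under 0.05 and a lowest adjusted p of 0.906. Each feeding had 2 dark and 2 light libraries, so large differences could go undetected. The 8 genes with the smallest p included the cholesterol synthesis genes Hmgcs1 and Hsd17b7. The contrast of Hsd17b7 was 1.78 ± 0.41 (adjusted p = 0.906). Hmgcs1 was at 209, 260, 117 and 152 FPKM in the dark, against 69.8, 152, 270 and 299 FPKM in the light. The restricted dark libraries were above the restricted light ones, and the ad libitum dark libraries were below the ad libitum light ones. Its difference was 1.17 under restricted and -1.09 under ad libitum feeding (contrast 2.26 ± 0.51, adjusted p = 0.906). Over the 25 cholesterol synthesis genes the median was 0.89 under restricted and -0.47 under ad libitum feeding, 0.21 over both, and 0 of 25 passed the phase test. Serpina7, the thyroxine carrier, was at 317, 342, 57.7 and 74.6 FPKM in the dark, against 133, 75.4, 251 and 87.0 FPKM in the light (contrast 2.87 ± 0.67). Neat1, a nuclear long RNA, had a contrast of -1.82 ± 0.28, Il1b, an inflammatory cytokine, 1.29 ± 0.28, and Rpph1, the RNA of ribonuclease P, 2.58 ± 0.57, all at adjusted p = 0.906.

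Several lists gave no call. Over all 9958 genes tested, 5219 lay above 0 and 4739 below, and 0.452% rose and 0.743% fell. At these shares lists of these sizes may well hold no call, so a count of 0 says little about a list. None of 21 acute phase genes passed, with 18 below 0 and a median of -0.48. None of 18 glucocorticoid target genes passed (median 0.20), nor of 22 ribosome biogenesis genes (median 0.29, 19 above 0), 19 glucose and glycogen genes (median -0.10), 21 insulin and fasting genes (median 0.07), 16 lipid droplet genes (median 0.36) or 14 Nrf2 oxidative stress genes (median 0.12). Neither did any of 15 one-carbon and polyamine, 18 xenobiotic, 17 autophagy and lysosome, 9 cell cycle or 7 mitochondrially encoded genes. Of 14 NAD metabolism genes 1 rose (Nnmt), of 15 immediate early genes 2 rose (Atf3 and Jun), and of 13 genes of the ATF4 amino acid response 1 rose (Atf3) and 1 fell (Fgf21). Immune cell, stellate cell and endothelial markers had 0 of 13, 0 of 11 and 0 of 12 genes passing. The median SE over all genes was 0.15, and the smallest difference that passed was 0.56 upward and -0.56 downward.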

How the data were processed

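Liver RNA was made into stranded, poly(A)-selected libraries, per the labels' protocols. The deposited values are FPKM, given by the authors for 45808 rows of genes in 67 libraries. Per the submitters' processing notes, STAR, featureCounts and DESeq2 were named with the GRCm38 build, and no source used here gives versions or the strand setting. FPKM are not counts, so values were analysed as log2(FPKM + 1), a scale that shrinks changes of weakly expressed genes. Testing used genes averaging 1 FPKM or more across the libraries, in limma 3.58.1 in R 4.3.3 (variance trend, Benjamini-Hochberg adjustment). Depth was recovered from whole-read steps of low values (tolerance 0.1 reads). Phase was tested over 8 Bmal1LKO libraries with feeding as a block, the phase by feeding contrast over the same libraries, and the difference from WT over 24 libraries with genotype by feeding as a block. The fits were tested on simulated data.

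Each Bmal1LKO time and feeding had 1 library, and no label states that WT libraries are of separate mice. The p-values thus reflect spread between these libraries only, part of which may be technical. No fit of the main tests had a term for time within a phase. The spread therefore also holds differences between ZT16 and ZT20 and between ZT4 and ZT8. By symbol, 41828 rows matched 1 GENCODE gene, and 27 symbols had been turned into dates. The comparison, members and gene lists were chosen with earlier results of these data known. Named genes were the core clock and PAR bZIP lists, the 12 that rose and the 12 that fell most among genes that passed with a mean of at least 5 FPKM, up to 4 passing members of each list, and 8 with the smallest p for each contrast with feeding or WT. Predicted genes were counted only, and some genes meeting the rule are not reported here, though they remain in every count. Promoters (RefSeq, GRCm38.p6) were searched on both strands, and further motifs searched are not reported. Alternatives varied the pseudocount (0.1), filter, scaling, GC and length correction, variance trend, library weights, blocks and libraries.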

Additional observations from a re-analysis of the deposited data

Results flagged for a closer look

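In a group of 4 libraries, 1 value stood apart from the other 3 by Dixon's test in 5 of 132 groups (66 named genes in 2 phases), and chance gives about 1 in 20. Per2 was at 4.99 FPKM in the light ad libitum ZT8 library, against 2.47 to 2.63 FPKM in the other light libraries. Cry2 was at 5.83 FPKM in that same library, against 4.59 to 4.78 FPKM, and Usp18, an interferon-induced protease, was at 8.42 FPKM there, against 11.6 to 12.4 FPKM. In the dark, the restricted ZT16 library had Osgin1 at 32.6 FPKM, against 40.4 to 42.1 FPKM in the other 3, and Mmd at 32.5 FPKM, against 25.8 to 26.3 FPKM. Of the 5 values, 3 came from ad libitum ZT8 and 2 from restricted ZT16. The dark minus light difference was tested against that of WT, and the Bmal1LKO minus WT value was -2.08 for Cry1.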

How the results depend on the processing

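With all 8 libraries 119 genes passed, and the count was 11 with no filter on low values, 75 with libraries scaled to the same sum, 257 with GC and length corrected, 937 with library weights, 43 with no feeding block, 277 with all 12 libraries and 73 in the fit shared with WT. Leaving out 1 library gave 0 to 286. The difference from WT, 3 genes, became 6 with no filter, 8 with GC and length corrected and 90 with library weights, and 2 to 4 with 1 library or WT replicate number left out. The difference by feeding, 0 genes, became 1 without ad libitum ZT16 and stayed 0 in the other leave-one-out fits. The WT count of 1876 became 1175 with no filter, 950 with a mean of at least 5 FPKM, 703 with no feeding block and 505 to 1150 with 1 replicate number. With the replicate block for WT it was 3220, and the difference from WT was 4. Deviations of same-numbered WT libraries correlated above 0.1 in 27 of 28 pairs (lowest -0.06, median 0.37), 1 pair short of the rule that all exceed 0.1, and no label says what the number marks. Each Bmal1LKO time and feeding had 1 library, so no replicate block was possible within that comparison. No named gene that passed reversed its direction under any setting. The causes of these changes were not tested, except that leaving out libraries leaves fewer samples. Calls of the 35 genes of the naming rule that passed held in 7 to 22 of up to 23 settings each.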
